A study of Homo sapiens with 8 samples.

Results

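The response of LNCaP prostate cancer cells to caffeine was read from a pair of arrays, 1 from untreated cells and 1 from cells kept in 10 mM caffeine for 4 hours. They belong to a set of 8 Affymetrix U133 Plus 2.0 arrays, 4 from LNCaP and 4 from 22Rv1. LNCaP is an established human line grown from a lymph node metastasis of a prostate carcinoma, and 22Rv1 is a carcinoma line derived from the CWR22 xenograft. Both were grown as bulk cultures in RPMI medium with serum, and each treatment is represented by 1 array. The other arrays of each line followed the caffeine step with another 4 hours in 2 µg/ml actinomycin D, which blocks transcription, with caffeine kept in the medium or without it. A gene was counted where a probe set of its own had a log2 signal of at least 4 on one of the LNCaP pair, which 10737 of 19775 genes did, and all values below are log2 signals or the difference caffeine minus untreated on that scale.

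Caffeine is a methylxanthine. It competes with adenosine at its receptors, slows the phosphodiesterases that break down cAMP, and at millimolar doses inhibits kinases related to PI3-kinase, among them SMG1, ATM, ATR and mTOR. SMG1 phosphorylates UPF1 in nonsense-mediated decay (NMD), the pathway that destroys mRNAs with an early stop codon, and caffeine was used here as an NMD inhibitor. mRNAs that NMD keeps low in normal cells include transcripts with upstream reading frames and the spliced hosts of small nucleolar RNAs. Insulin signalling through PI3-kinase, AKT and mTOR keeps the FOXO transcription factors out of the nucleus, while phosphorylated eIF2 slows translation and favours that of ATF4.

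No array was repeated, so none of the differences has a replicate check and no test was made. The spread between detected probe sets of the same gene (SD 0.52, 12763 probe sets of 4913 genes) is the only measure of error, and it also holds true differences between transcripts of a gene. Signals were quantile normalized, so a difference is relative to the other transcripts, and fewer cells of a type cannot be told apart from less RNA per cell. The 18 hybridization control probe sets, which detect RNA added in equal amounts, differed by -0.51 on average (SD 0.22), 24 poly-A control probe sets by -0.21 (SD 0.30), 3 control probe sets for 18S rRNA by -1.51, 2 for 28S rRNA by -2.93 and 3 for ACTB by -0.56, whereas 3 for GAPDH differed by -0.04. Measured from the hybridization controls every difference would be 0.51 higher, and from the poly-A controls 0.21 higher. The part of these shifts in the results was not tested. All 11 luminal prostate markers with a probe set of their own were detected on both arrays, with KLK2 at 10.44 and 10.70, and 0 of 5 immune markers were. Of the other markers, 1 of 5 basal, 1 of 6 endothelial and 2 of 7 fibroblast genes reached 4, of which ITGB4 (4.07 and 4.08), CLDN5 (4.38 and 4.50) and DCN (3.14 and 4.01) were near the floor and COL1A1 was at 8.50 and 8.39.

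Of the detected genes, 557 (5.19%) were at least 1 higher after caffeine, which is 2-fold or more, and 397 (3.7%) were at least 1 lower. The median difference was -0.02 and the quartiles were -0.31 and 0.30. The higher genes were 58.4% of those past the cut-off, and 93.6% when differences were measured from the hybridization controls, which gave 1843 higher and 127 lower genes. The poly-A controls, a reference chosen after seeing the data, gave 959 higher and 238 lower genes, or 80.1% higher. By probe set the counts were 1385 (6.38%) and 1136 (5.23%) of 21722. Differences of at least 2 were found for 58 genes upward and 44 downward, and 16 and 13 of these had a signal under 4 on the lower array, where gcRMA values carry little information. The share past the cut-off depended on signal: it was 12.9% upward and 15.8% downward for genes with a mean signal under 4, and 1.64% and 0.62% for those at 10 or more. Just inside the cut-off were TMEM231 at 1.0002 and FADD at -1.0043, and just outside were NEMF at 0.9995 and CLEC11A at -0.9995.

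**Figure D1:**
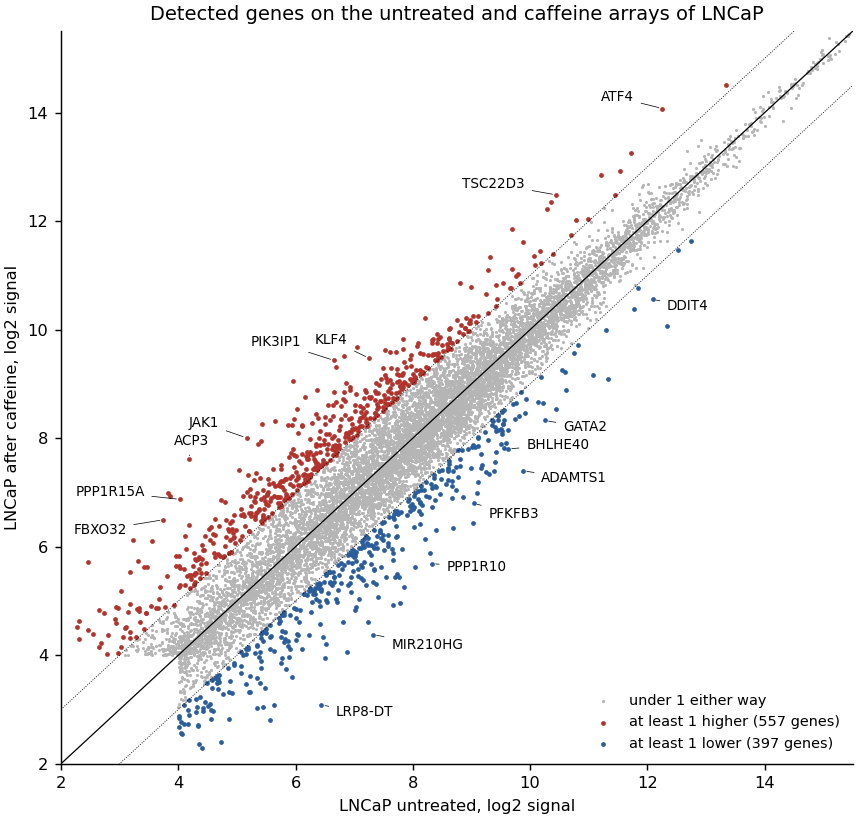
Log2 signal of each detected gene in untreated LNCaP cells (horizontal axis) and after caffeine (vertical axis), 1 point a gene and 1 array an axis. The solid line marks equal signals and the dotted lines a difference of 1. Most of the 557 red and 397 blue points lie below a signal of 10, and ATF4 is among the few high-signal genes past the line, at 12.26 and 14.08.

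Other probe sets of a gene gave a check within the same arrays. The 268 higher genes with further detected probe sets had 441 of them, of which 173 were also at least 1 higher, 172 were higher by less, and 96 were at or below 0, 9 of them at -1 or lower. For 137 lower genes the further 195 probe sets divided into 82, 72 and 41, with 9 at 1 or higher. The further probe sets had a median of 0.74 against 1.26 for the probe set that represents the gene, and of -0.80 against -1.28. Where a gene had at least 2 detected probe sets, all of them were at least 1 higher in 82 of 4913 genes (1.67%) and all at least 1 lower in 55 (1.12%).

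Genes were ranked by the smallest difference over at least 2 detected probe sets, and the 15 highest and 15 lowest are described. JAK1, the kinase that carries signals from interferon and interleukin receptors, had a signal of 5.16 untreated and 8.01 after caffeine, a difference of 2.84, and its other probe set gave 2.46. PPP1R15A, the phosphatase subunit that removes the phosphate from eIF2 after stress, went from 4.03 to 6.87 (differences 2.84 and 2.37). FBXO32, a ubiquitin ligase known from muscle wasting, was under the floor untreated at 3.75 and at 6.50 after caffeine (2.75 and 2.14). All 3 had low signals in untreated cells.

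Several others had higher untreated signals than these 3, where the median over all detected genes was 7.79. PRKAB1, a regulatory subunit of the energy sensor AMPK, was at 6.04 untreated and 8.09 after caffeine. KLF4, a zinc finger transcription factor, was at 7.25 and 9.48, and the nuclear receptor NR1D2, which represses clock genes, at 7.83 and 9.83. TSC22D3, a leucine zipper protein induced by glucocorticoids, was at 10.44 and 12.48. HBP1, an HMG-box repressor of cell cycle genes, was at 9.28 and 11.11, and its probe sets were apart, at 1.83 and 3.29. The histone demethylase KDM5A was higher on all of its 4 detected probe sets, by 1.97 to 2.70. CDADC1, DNAJC27 and RNPC3, a protein of the minor spliceosome, were higher by 1.98, 1.83 and 1.96 on the probe sets that represent them.

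Of the genes that were lower on every probe set, ADAMTS1, a secreted protease of the extracellular matrix, was at 9.88 untreated and 7.40 after caffeine (differences -2.49 and -2.37). MIR210HG, the host transcript of the hypoxia microRNA miR-210, was at 7.32 and 4.38 (-2.94 and -2.20). GATA2, a factor that opens chromatin for the androgen receptor in prostate cells, was at 10.25 and 8.33 (-1.93 and -1.77). PPARA, the nuclear receptor of fatty acid oxidation, was lower on 3 probe sets, by -1.68 to -2.19, with signals of 7.02 and 4.83 on the one that represents it.

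DDX28, a mitochondrial RNA helicase, was at 7.40 and 5.07. GEMIN4, a part of the SMN complex that assembles splicing particles, was at 8.85 and 6.92. ALYREF, an adaptor for mRNA export, was at 8.32 and 6.74, and the actinomycin D arrays gave it 9.60 with caffeine and 10.04 without. Proteoglycan synthesis was represented by B3GALT6 at 10.62 and 8.90 and DSEL at 9.17 and 7.45. BHLHE40 (-1.82), ALDH1B1 (-2.31), DIPK1A (-2.14), C15orf39 (-1.82), EPN3 (-1.67) and the membrane estrogen receptor GPER1 (-1.73) completed the 15. All 15 would stay below 0 by at least 1 if measured from the hybridization controls, since their smallest difference of -1.58 exceeds the shift.

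**Figure D2:**
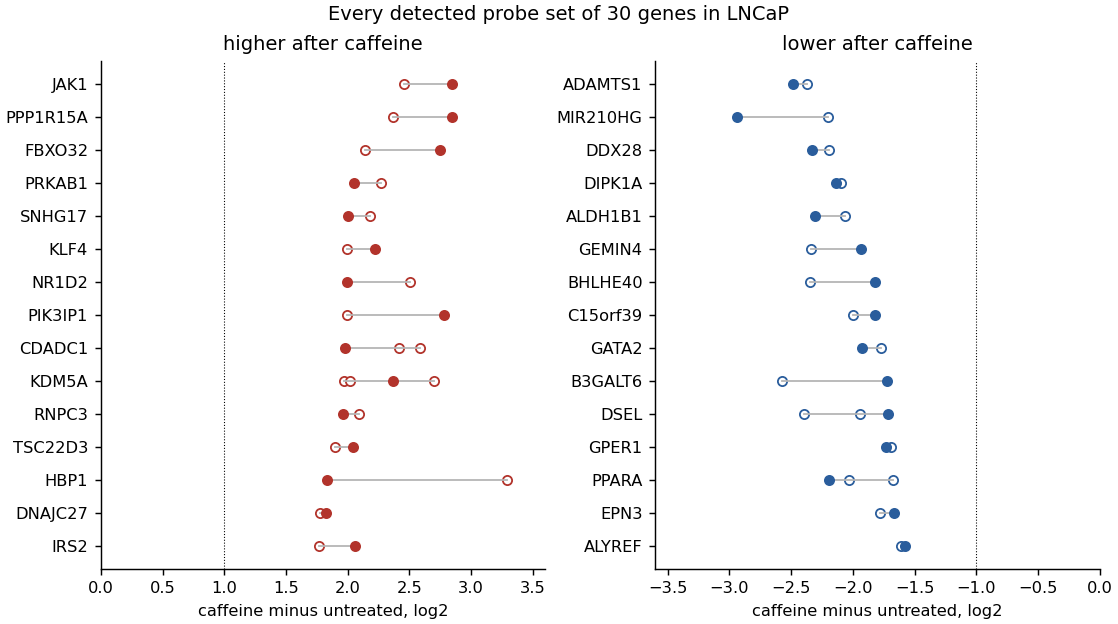
Caffeine minus untreated difference (log2, horizontal axis) of every detected probe set of the 15 genes higher and 15 genes lower on all of their probe sets, chosen by the smallest difference of a gene. Filled points are the probe set that represents the gene, open points its others, and the dotted line the cut-off of 1. HBP1 has the widest pair, at 1.83 and 3.29.

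Genes with a single detected probe set lack this check. ACP3, the prostatic acid phosphatase, had the largest difference of all detected genes at 3.44, from 4.18 to 7.61. The chloride transporter CLCN6 was at 3.85 and 6.93, the ubiquitin ligase CBLB at 5.36 and 7.89, and the zinc finger protein YPEL2 at 6.82 and 9.51. REM2, a small GTPase, was at 3.82 and 6.99, but at 3.67 and 3.82 on the actinomycin D arrays with and without caffeine, so that 3 of the 4 LNCaP arrays had it under the floor. VCPKMT (2.62), CDKN2AIP (2.60), RERE (2.38), LOC389765 (2.66) and the chemokine CCL20 (2.63) were the remaining genes of the 10 highest.

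Downward, PPP1R10, which anchors protein phosphatase 1 in the nucleus, was at 8.33 untreated and 5.69 after caffeine, and at 3.64 and 3.18 on the actinomycin D arrays. S1PR3, a receptor for sphingosine 1-phosphate, was at 7.85 and 5.25, and BHLHA15, a factor of secretory cells, at 7.67 and 4.92. PRR15L (-2.82), ZBTB42 (-2.81), PHOSPHO2 (-2.33) and FAM86C1P (-2.56) were in the same group. The last 3 of the 10 were noncoding transcripts: SP2-AS1 (-2.61), LRP8-DT (-3.36) and MARCHF6-DT (-2.33). LRP8-DT was at 3.08 after caffeine, under the floor, and with signals under 4 set to 4 its difference was -2.44.

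FOXO factors and targets had a median difference of 0.68 over 25 detected genes of 27 listed, against -0.02 over all detected genes. At least 1 higher were 9 of the 25, beside 5.19% of all genes, and 0 were at least 1 lower. The median was 0.29 without a floor, without probe sets ending in _s_at or _x_at, where 5 of 19 were at least 1 higher, and with the probe set highest over the LNCaP pair. It was 0.32 with the mean of the probe sets of a gene, and 1.19 from the hybridization controls, where 13 were at least 1 higher. The list holds direct targets of FOXO factors and feedback genes of insulin signalling. Like the other lists it was chosen with earlier results of these data known, so its median and counts are a description. The shares of all detected genes, 5.19% at least 1 higher and 3.7% at least 1 lower, also apply to the main counts of the lists below. Beside counts from the hybridization controls stand 1843 higher and 127 lower of all 10737 detected genes. PIK3IP1, an inhibitor of PI3-kinase, was at 6.66 untreated and 9.43 after caffeine, with differences of 2.78 and 1.99 on its probe sets. IRS2, the adaptor of the insulin receptor, was at 8.81 and 10.87 (2.06 and 1.77). CDKN1B, the cyclin-dependent kinase inhibitor p27, was at 9.42 and 10.83 on its only detected probe set. These genes had no low signal on either array.

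TXNIP, which binds thioredoxin and limits glucose uptake, was at 11.54 and 12.92, and its 3 probe sets gave 1.39, 1.66 and 1.39. SESN1, a sestrin that restrains mTORC1, was at 8.61 and 9.83, and YPEL3 at 6.18 and 7.32. KLHL24 was higher by 1.89, but its other probe sets ranged from -0.54 to 3.12. CCNG2, a cyclin linked to cell cycle exit, stayed just under the cut-off at 0.96, with 1.21 to 1.83 on 3 others. Not all members were higher: SOD2, the mitochondrial superoxide dismutase, differed by -0.98, SESN3 by -0.45, and GADD45A by 0.07. The factors themselves were close to 0 for FOXO1 (0.09) and FOXO4 (-0.02), and FOXO3 gave 0.73, 0.05 and -1.11 on its 3 probe sets.

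Promoters of the genes past the cut-off were searched for the forkhead core GTAAACA on both strands, from 250 bases before to 50 after each RefSeq start (GRCh38.p14). It stood in 25 of 461 promoters of higher genes (5.42%), 8 of 315 of lower genes (2.54%), 193 of 8865 of detected genes (2.18%) and 931 of 27305 of all genes (3.41%). These are shares of letters in a window and not binding sites. The median GC content of the promoters was 64.0% for higher, 67.3% for lower and 65.7% for detected genes. The part of GC content in the motif shares was not tested. Of the higher genes named here HBP1, CLK4, TXNIP and YPEL3 held it. YPEL3 has 1 detected probe set, and 60 bases around the motif are shown for the other 3 because they place it in promoters of genes that were at least 1 higher on several probe sets. The motif is in capitals and each is written 5′ to 3′ in the direction of the gene. The motif begins 173, 222 and 124 bases before the start in the order given, for HBP1 on the plus strand at chr7:107168804-107168863, CLK4 on the minus strand at chr5:178627239-178627298 and TXNIP on the minus strand at chr1:145996670-145996729.
HBP1: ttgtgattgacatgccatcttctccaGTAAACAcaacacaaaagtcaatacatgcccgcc
CLK4: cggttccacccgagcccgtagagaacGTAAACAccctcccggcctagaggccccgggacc
TXNIP: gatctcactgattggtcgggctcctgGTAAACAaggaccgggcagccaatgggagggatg

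Another 5 motifs were counted in the same windows on both strands. The E-box CACGTG stood in 11.1% of the promoters of higher genes, 10.2% of lower and 10.9% of detected genes. The cAMP response element TGACGTCA stood in 3.04%, 3.49% and 3.45%, the hypoxia response core GACGTG in 9.33%, 9.84% and 11.1%, the AP-1 site TGANTCA in 4.56%, 5.71% and 3.99%, and the C/EBP-ATF element TGATGNAAN in 1.52%, 0.32% and 1.57%. Over all promoters the shares were 7.43%, 1.98%, 7.88%, 7.76% and 3.67% in the same order. No motif contains another.

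The eIF2 stress list had a median of 0.53 over 19 detected genes of 20, with 6 at least 1 higher and 2 at least 1 lower, beside 5.19% and 3.7% of all genes. From the hybridization controls the median was 1.04, with 10 higher and 1 lower, beside 1843 and 127 of all 10737 detected genes. ATF4, the transcription factor whose translation is favoured when eIF2 is phosphorylated, was at 12.26 untreated and 14.08 after caffeine. Its partners CEBPG (7.74 and 9.27) and DDIT3 (7.81 and 9.16) were higher by 1.53 and 1.35, with 0.47 on the other probe set of CEBPG. SESN2 was at 6.14 and 7.33, although its other probe set differed by 0.01. ATF5 was at 5.50 and 6.79 on the probe set that represents it, while its others differed by -0.01 and -0.13. Some members therefore rest on 1 probe set of several.

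DDIT4, an mTORC1 inhibitor that both ATF4 and hypoxia induce, was at 12.09 untreated and 10.56 after caffeine, and then at 5.93 and 4.68 on the actinomycin D arrays. EIF2AK4, the kinase that senses uncharged tRNA, gave -1.03 on one probe set and 2.60 on another. ATF3 (0.39), TRIB3 (-0.18) and CEBPB (-0.14), stress-induced regulators that ATF4 can drive, were within 0.4 of 0. Of the ATF4 targets that supply amino acids, 0 of 17 were past the cut-off in either direction, beside 5.19% and 3.7% of all genes, and their median was -0.07. At a mean signal of 10 or more, where several of the 17 lie, the shares of all genes were 1.64% and 0.62%. From the hybridization controls 3 of the 17 were at least 1 higher, beside 1843 of all 10737 detected genes, and their median was 0.44. Asparagine synthetase (ASNS) was at 10.77 and 11.14 and the serine synthesis enzyme PHGDH differed by -0.07, while the transporter subunits SLC3A2 (0.83) and SLC7A11 (0.69) and the transporter SLC38A2 (0.75) were the highest.

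The aminoacyl-tRNA synthetases, also ATF4 targets in part, had a median of 0.12 with 0 of 17 past the cut-off. Most of them had a mean signal of 10 or more, where few genes passed it. In the unfolded protein response of the endoplasmic reticulum 2 of 23 were at least 1 higher, beside 5.19% of all genes, and the median was 0.14. Both were sensors: ERN1 was at 7.22 and 8.62 (1.40, and 1.50 on another probe set), and ATF6 at 6.96 and 8.26 (1.24 and -0.13 on other probe sets). The chaperone HSPA5 differed by -0.29 and XBP1 by 0.58. Heat shock proteins and chaperones had 0 of 19 past the cut-off, beside 5.19% higher and 3.7% lower of all genes. Their median was -0.11, or 0.40 from the hybridization controls. DNAJA1 had the lowest value of them, with 11.79 untreated and 10.82 after caffeine.

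**Figure D3:**
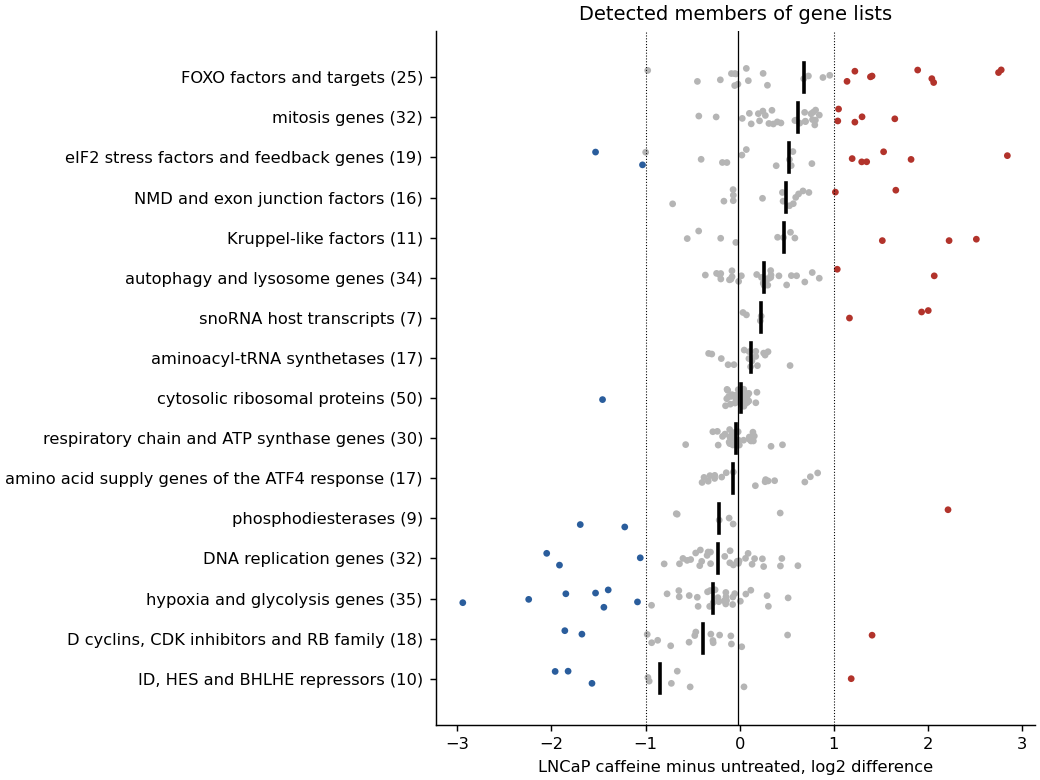
Caffeine minus untreated difference in LNCaP (log2, horizontal axis) of each detected member of 16 gene lists, with the number of members in brackets. Thick bars are list medians, the thin line the median of all detected genes, dotted lines the cut-off of 1, and red and blue points are past it. FOXO targets (median 0.68), mitosis genes (0.62) and eIF2 stress factors (0.53) lie to the right, and ID, HES and BHLHE repressors (-0.84) to the left.

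NMD and exon junction factors, several of whose own mRNAs are substrates of the pathway, had a median of 0.49 over 16 detected genes of 23 listed, and 2 were at least 1 higher, beside 5.19% of all genes. From the hybridization controls the median was 1.01 and 8 of 16 were at least 1 higher, beside 1843 of all 10737 detected genes. SMG9, a partner of the kinase SMG1, was at 5.89 untreated and 6.91 after caffeine, with 1.41 on its other probe set. The helicase DHX34 was at 3.81 and 5.47 on its only detected probe set, which was under the floor untreated. The core factors UPF1 and UPF2 differed by 0.45 and 0.67, with -0.42 for another probe set of UPF1, and the endonuclease SMG6 by 0.59 at signals of 3.56 and 4.15. EIF4A3, the helicase of the exon junction complex, was the lowest at -0.71.

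The hosts of small nucleolar RNAs had 3 of 7 detected genes at least 1 higher, beside 5.19% of all genes. All 7 were above 0 on the probe set that represents them, beside 5059 of all 10737 detected genes, and their median was 0.23. RC3H2 differed by only 0.07, and its 7 detected probe sets ranged from -3.33 to 1.81. SNHG17 was at 8.21 and 10.21 (2.00, and 2.18 on another probe set), and EPB41L4A-AS1 at 10.29 and 12.22, with 0.64 on another. ZFAS1 was at 13.35 and 14.51, with its other probe sets at 1.25, 1.43 and -0.12. GAS5, a host often used to follow NMD, differed by 0.03, but its signal of 4.37 untreated was near the floor on the only probe set detected.

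Among 12 detected genes of the splicing kinase list, 2 were at least 1 higher, beside 5.19% of all genes, and the median was 0.19. The list holds CLK and SRPK kinases, which phosphorylate SR proteins, and kinases of the HIPK and DYRK families. Without probe sets ending in _s_at or _x_at the median was -0.30 over 7 genes, with 1 higher and 1 lower. CLK1, whose pre-mRNA holds retained introns, was at 7.53 and 9.63, and CLK4 at 7.20 and 8.85, with 1.29 on its other probe set. CLK2 was higher by 0.50, and CLK3 gave 0.69 and -1.74 on its probe sets. Of 24 SR and other splicing factors with exons that carry an early stop, 3 were at least 1 higher, beside 5.19% of all genes. Their median was 0.20. PTBP2, the neural splicing repressor, was at 7.03 and 8.81 with 1.06 on another probe set. SRSF6 gave 1.10 and -1.07, and RBM39 gave 1.05, 1.05 and -0.77. Probe sets of these genes therefore differed in direction, and whether they detect different isoforms was not tested.

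Kruppel-like factors had a median of 0.47 over 11 detected genes. At least 1 higher were 3, KLF4, KLF6 and KLF5, beside 5.19% of all genes. KLF6 was at 6.02 and 8.53, with 0.63 to 2.15 on 3 further probe sets, and KLF5, a factor of proliferating epithelium, at 4.42 and 5.94. Immediate early genes, a list that also holds KLF6, had 2 of 16 at least 1 higher and 1 at least 1 lower, beside 5.19% and 3.7% of all genes. Their median was 0.09. JUN, a subunit of AP-1, was at 7.12 and 5.97 with -1.18 on its other probe set, and MYC differed by -0.04 at a signal of 12.66 untreated. MCL1, an inhibitor of apoptosis, was higher by 1.05 on the probe set that represents it but differed by -0.21 to -0.99 on its 4 others.

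NF-kB inhibitors and targets had 3 of 16 at least 1 higher, beside 5.19% of all genes, and a median of 0.27. TNFAIP3, the ubiquitin editing enzyme A20, was at 5.40 and 7.95 (1.50 on another probe set), NFKBIZ, a nuclear IkB protein, at 5.94 and 8.24, and CCL20 at 7.05 and 9.67. CCL20 was higher still on the actinomycin D arrays, at 11.28 with caffeine and 11.90 without. The other 13 were under the cut-off, with NFKBIA, the main NF-kB inhibitor, at -0.02 and IRF1 at 0.82.

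ADORA2B, an adenosine receptor that raises cAMP, was at 7.66 untreated and 5.75 after caffeine, and ADORA1 differed by -0.06. Of 9 detected phosphodiesterases, PDE4A (5.16 and 3.46) and PDE3B (6.66 and 5.44) were at least 1 lower and PDE10A (4.19 and 6.40) at least 1 higher. Their median was -0.22, or 0.29 from the hybridization controls, and another probe set of PDE4A gave -0.09. Targets of cAMP and CREB had a median of 0.31 over 10 detected genes of 31 listed, or 0.02 over 28 without a floor. The 2 that were at least 1 higher were PDE10A and the CREB coactivator CRTC2 (5.23 and 6.93). NR4A1, a classical cAMP target, was at 6.34 and 5.82 and CREM at 5.74 and 5.24.

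Of the kinases that caffeine inhibits and their partners, 1 of 13 was at least 1 higher and 0 at least 1 lower, beside 5.19% and 3.7% of all genes. The median was 0.24. The gene past the cut-off was RICTOR, the defining subunit of mTORC2, at 7.47 and 9.08, with 1.22 and 0.03 on other probe sets. ATR was at 8.51 and 7.63 (-0.87 and -0.75), ATM differed by -0.16 and MTOR by 0.24.

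Hypoxia and glycolysis genes had 7 of 35 detected members at least 1 lower, beside 3.7% of all genes, and 0 at least 1 higher. Their median was -0.28 and 29 of the 35 were below 0, beside 5668 of all 10737 detected genes. Measured from the hybridization controls the median was instead 0.23, with 4 lower and 1 higher, beside 127 and 1843 of all genes. PFKFB3, which makes the activator of phosphofructokinase, was at 9.04 untreated and 6.80 after caffeine, and PFKFB4 at 9.10 and 8.02. SLC2A1, the glucose transporter GLUT1, was at 7.81 and 5.96. EGLN3, a prolyl hydroxylase that marks HIF for destruction, was at 6.77 and 5.32 with -1.83 on its other probe set.

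The carbonic anhydrase CA12 was at 9.81 and 8.41, with its other probe sets between -0.53 and -1.40. VEGFA differed by -0.94 at signals of 10.69 and 9.76, while its other probe sets ranged from -0.51 to 0.33. Of the enzymes of glycolysis, HK2 differed by -0.77, ALDOC by -0.54, PGAM1 by -0.45, PFKP by -0.31, LDHA by -0.23, PGK1 and ALDOA by -0.15, PKM by -0.14, GPI by -0.07 and HK1 by 0.01. HIF1A differed by 0.06 and EPAS1, which encodes HIF-2α, by 0.29. MIR210HG and DDIT4, described above, are the remaining members past the cut-off.

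**Figure D4:**
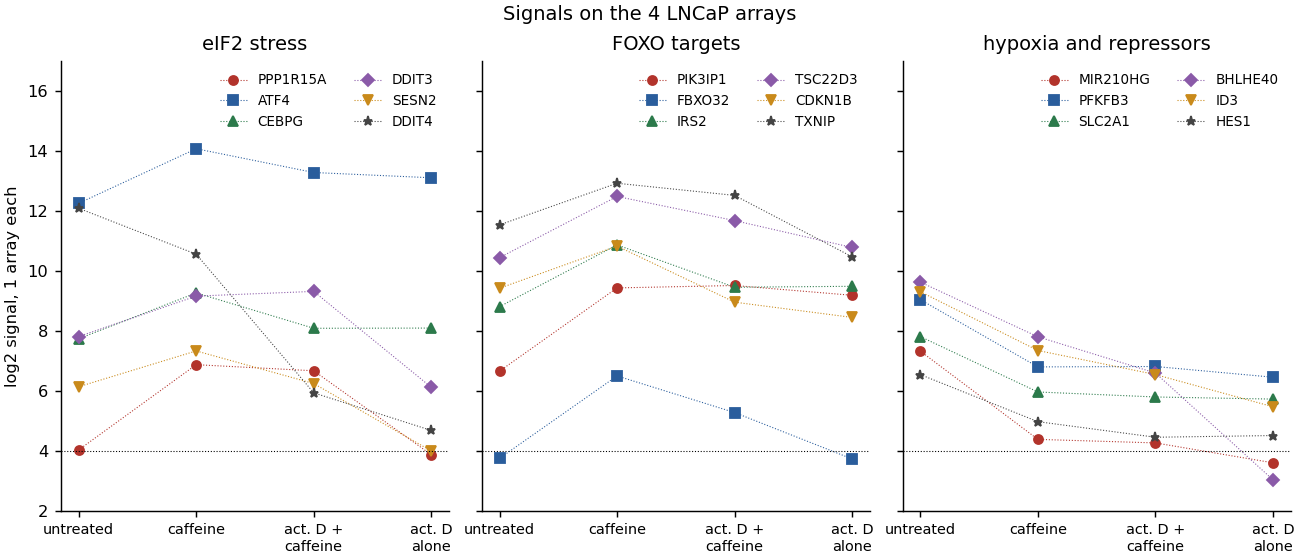
Log2 signal (vertical axis) on the 4 LNCaP arrays of 6 eIF2 stress genes, 6 FOXO targets and 6 hypoxia or repressor genes, 1 array a point, with dotted lines only joining the points of a gene and the horizontal line at the floor of 4. PPP1R15A was at 6.87 after caffeine, 6.67 with actinomycin D and caffeine, and 3.87 with actinomycin D alone, while PIK3IP1 was at 9.43, 9.51 and 9.19.

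Mitosis genes had a median of 0.62 over 32 detected genes, 30 of them above 0 beside 5059 of all 10737 detected genes, and 5 were at least 1 higher, beside 5.19% of all genes. From the hybridization controls the median was 1.13 and 18 of 32 were at least 1 higher, beside 1843 of all 10737 detected genes. TTK, a kinase of the spindle checkpoint, was at 7.52 and 9.17, AURKA at 10.06 and 11.36 (1.11 on another probe set), and the topoisomerase TOP2A at 9.77 and 10.99 (1.32 on another). AURKB was at 7.92 and 8.97 and HMMR at 10.19 and 11.23. PLK1 (0.77), CENPF (0.85) and KIF11 (0.76) were higher by less than 1, and CDK1 (0.10), CCNB1 (0.27) and CDC20 (0.12) were near 0.

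DNA replication genes had a median of -0.23 over 32 detected genes, and from the hybridization controls the median was 0.28. At least 1 lower were 3 and at least 1 higher 0, beside 3.7% and 5.19% of all genes. GINS4, a subunit of the replicative helicase, was at 7.37 and 5.32, MCM10, which loads replication factors at origins, at 9.11 and 7.20, and the flap endonuclease FEN1 at 10.18 and 9.12 with -1.01 on another probe set. GINS4 was at 7.63 and 8.31 on the actinomycin D arrays, above its untreated signal on both. PCNA differed by -0.43 and MCM3 by -0.60, while MCM7 (0.24), RFC3 (0.45) and RPA2 (0.62) were above 0.

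The D cyclins, kinase inhibitors and RB family had a median of -0.39 over 18 detected genes, or 0.12 from the hybridization controls. CCND1, the cyclin that drives entry into the cycle, was at 9.24 untreated and 7.38 after caffeine, with -0.73 on its other probe set, and at 9.08 and 8.88 on the actinomycin D arrays. CDKN1A, the kinase inhibitor p21 and a p53 target, was at 9.60 and 7.92, whereas the inhibitor CDKN1B was higher, as described. Over all 28 detected p53 targets the median was 0.04. At least 1 higher were 2 (SESN1 and SESN2), beside 5.19% of all genes. At least 1 lower were 2 (CDKN1A and TIGAR, at -1.68 and -1.16), beside 3.7%. MDM2 differed by -0.47 and BAX by -0.02.

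Signalling regulators past the cut-off were spread over several pathways. In EGF and insulin receptor signalling, 3 of 19 were at least 1 higher: CBLB, IRS2 and the AKT phosphatase PHLPP2 (6.84 and 7.93). TGFA, an EGF receptor ligand, was at 4.68 and 3.55, under the floor after caffeine. With signals under 4 set to 4, 0 of the 19 were at least 1 lower. In JAK and STAT signalling JAK1 and SOCS2 (4.03 and 5.30) were at least 1 higher, and STAT3 was lower on all 3 probe sets, by -0.94 to -1.38. DUSP2, a phosphatase of ERK kinases, was at 7.11 and 5.42 and was the only one of 12 such inhibitors past the cut-off.

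In TGF-beta signalling SMAD4 was at 7.40 and 8.57 (0.68 and 1.73 on others), and the inhibitors TGIF2 (-1.52) and SMAD6 (-1.15) were lower. Of 8 detected WNT feedback genes, ZNRF3 (7.58 and 6.07) and CTNNB1, which encodes β-catenin (11.77 and 10.38), were at least 1 lower. The ID, HES and BHLHE repressors had the lowest median of the lists, at -0.84 over 10 detected genes, and -0.33 from the hybridization controls. ID3 was at 9.31 and 7.35, HES1 at 6.54 and 4.97 with -2.27 on its other probe set, and BHLHE40 at 9.63 and 7.80. ID4 was the only one at least 1 higher, at 4.21 and 5.40. Without probe sets whose names end in _s_at or _x_at, which can detect several transcripts, only 3 of the 10 genes were left. Their median was 0.045.

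The arrestin-domain genes related to TXNIP divided: ARRDC3 was at 6.82 and 8.72 and ARRDC4 at 6.58 and 8.33, while ARRDC1 (-0.47) and ARRDC2 (-0.39) were below 0. Autophagy and lysosome genes had a median of 0.26 over 34 genes with 2 at least 1 higher, ATG14 (6.55 and 8.62) and the initiating kinase ULK1 (5.93 and 6.97). In the MYC network the MYC antagonist MXD1 was at 5.21 and 6.62 with 1.23 on another probe set, and the other 19 members were under the cut-off. Among clock genes, NR1D2 and BMAL1 (6.33 and 7.58) were higher and BHLHE40 and DBP (7.57 and 6.02) lower. Regulators of apoptosis of the BCL2 family past the cut-off were BMF (4.02 and 5.64), MCL1 and BOK (7.57 and 6.21), out of 17.

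Housekeeping groups stayed close to the median of all genes. Ribosomal proteins had a median of 0.01 over 50 genes, and 49 of them were under the cut-off, the other being RPL27A at 8.11 and 6.65. The respiratory chain (-0.04, 30 genes) and the proteasome (0.09, 27 genes) had 0 members past it, and so had polyamine metabolism (0.04, 12 genes). Of all genes 5.19% were at least 1 higher and 3.7% at least 1 lower. At a mean signal of 10 or more these shares were 1.64% and 0.62%. The part of signal level in the counts of these groups was not tested. From the hybridization controls the medians of these groups were 0.52, 0.47, 0.60 and 0.55 in the order given. Sterol and fatty acid synthesis had a median of -0.08 over 27 genes and 1 past the cut-off, MVD, whose untreated signal of 3.62 was under the floor.

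Prostate genes had a median of -0.05 over 24 genes with 1 at least 1 higher, ACP3, and 3 at least 1 lower. MAF was at 8.28 and 6.92 (-0.80 and -1.0 on others), FOLH1, the prostate-specific membrane antigen, at 8.23 and 6.94, and the cold-sensing channel TRPM8 at 7.44 and 6.26. The androgen receptor target KLK3, which encodes PSA, was at 7.91 and 7.96, TMPRSS2 at 10.83 and 10.29 and FKBP5 at 10.96 and 10.29. FOXA1, the pioneer factor of luminal cells, was at 10.05 and 10.96, with -0.07 on its other probe set. Among neuroendocrine genes TUBB3 was at 10.59 and 9.22 and STX1A at 4.70 and 6.39. Of 13 detected histone genes, H2AC6 (9.70 and 11.12) was higher and H2AX (11.83 and 10.76) and H3-3A (4.04 and 2.56) lower. H3-3A was near the floor untreated and under it after caffeine, and with signals under 4 set to 4 only 1 histone gene was at least 1 lower.

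By transcript class, lncRNA genes were 3.79% of the detected genes, 5.92% of the higher and 13.1% of the lower ones. Of 407 detected lncRNA genes, 33 were at least 1 higher and 52 at least 1 lower, that is 8.11% and 12.8%. Genes shorter than 5 kb were 10.4% of the detected, 8.08% of the higher and 18.6% of the lower genes, and the median gene lengths were 29.5, 34.0 and 23.3 kb. Zinc finger genes of the ZNF series were 3.03%, 4.13% and 4.03%. Low signals go with larger differences on these arrays, as given above, and the part of signal level in these shares was not tested.

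Genes sequenced by the study in LNCaP were selected on these same arrays, so their differences chose them and are given as a description. PARD3, a polarity protein of tight junctions and asymmetric division, was at 3.23 untreated and 6.13 after caffeine, and its other detected probe set gave 1.37. CLPTM1 was at 4.26 and 5.89 (0.71 on another) and GTPBP2 at 5.25 and 6.75 (-0.04 on another). For ANKRD28 and VRK3 one probe set was higher, by 1.74 and 1.53, while the probe set with the highest signal gave -0.05 and -0.18. The stated criteria, applied again to the deposited signals, left 56 probe sets after the untreated and caffeine steps and 7 in all. Of these, the probe set of the noncoding LMNTD2-AS1 was at 3.87 and 5.32, while another one with a higher signal gave that gene 4.03 and 4.58. A further one, at 5.37 and 6.68, is assigned to AFF3 in the annotation used here, and AFF1's own probe set was at 9.55 and 10.19. Among the 20 detected genes of the Par, Crumbs and Scribble list, which holds PARD3, MARK2 (5.41 and 3.89) and PARD6G (7.07 and 5.58) were at least 1 lower.

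The same comparison in 22Rv1 used arrays of its own, though all 8 were normalized together. There 922 of 10961 detected genes (8.41%) were at least 1 higher and 671 (6.12%) at least 1 lower. Of the genes higher in LNCaP, 514 were detected in 22Rv1, where their median difference was 1.0 and 258 (50.2%) were at least 1 higher and 2 at least 1 lower. For 305 of the lower genes the median was -0.92, with 138 (45.2%) at least 1 lower and 4 at least 1 higher. The 10178 genes detected in both lines had a median of -0.02 in 22Rv1, with 7.74% and 5.50% past the cut-off. The differences of the lines correlated across these genes with Pearson's r of 0.59 and Spearman's rho of 0.56, and with 0.63 and 0.60 over 7025 genes with all signals at 6 or more, as a description, since genes are not independent replicates.

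JAK1, mutated in both lines by the paper's account, differed by 3.39 in 22Rv1, PPP1R15A by 3.10, FBXO32 by 2.53, TSC22D3 by 2.59 and MIR210HG by -5.54. FOXO targets had a median of 0.60 there with 9 of 26 at least 1 higher. The eIF2 stress list had a median of 0.53 with 8 of 19 at least 1 higher and 4 at least 1 lower. Of all genes detected in 22Rv1, 8.41% were at least 1 higher and 6.12% at least 1 lower. Other groups had different values. The mitosis list had a median of -0.14 in 22Rv1 with 0 of 32 at least 1 higher, against 0.62 in LNCaP, where TOP2A differed by 1.22 beside 0.20 in 22Rv1. The cAMP list had a median of 2.90 over 18 genes in 22Rv1, and SIK1 differed by 5.13 there and 0.60 in LNCaP. In LNCaP only 10 genes of that list were detected, so its medians in the 2 lines are not over the same genes. A gene that passes the floor only after caffeine counts as detected, which favours high medians. ACP3 differed by 0.28 and ADAMTS1 by 0.85 in 22Rv1. None of these differences between the lines was tested, since each line has 1 array a treatment.

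**Figure D5:**
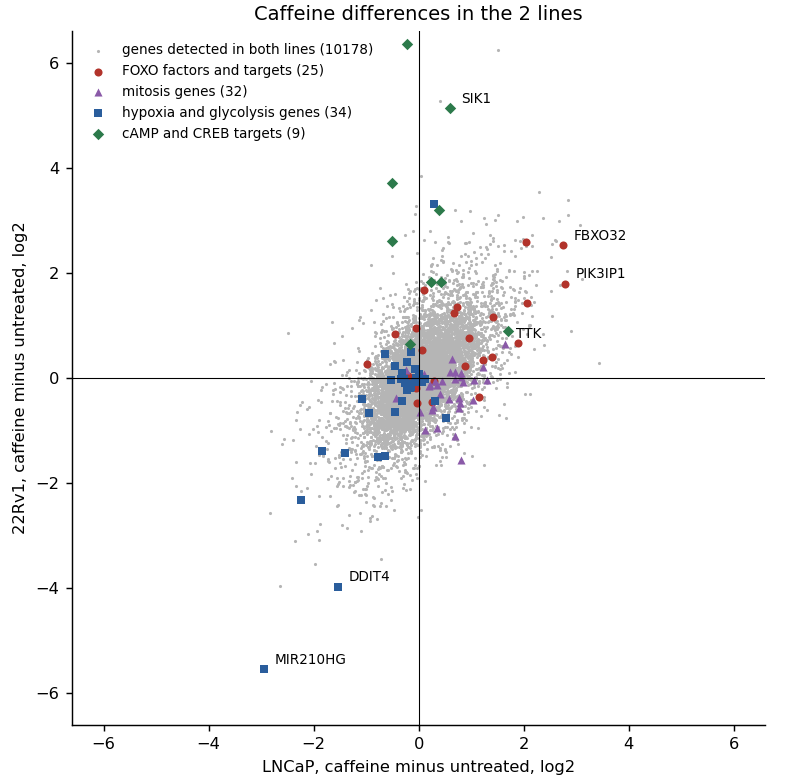
Caffeine minus untreated difference (log2) in LNCaP (horizontal axis) and 22Rv1 (vertical axis) of the 10178 genes detected in both lines, with 4 lists marked. FOXO genes such as FBXO32 (2.75 and 2.53) lie toward the upper right, 30 of 32 mitosis genes to the right of the vertical line, and cAMP targets such as SIK1 (0.60 and 5.13) high on the vertical axis.

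The actinomycin D arrays of LNCaP, which share no array with the pair compared, differ in the presence of caffeine while transcription is blocked. With caffeine minus without, 530 of the higher genes had a median of 0.39 and 102 of them (19.2%) were at least 1, against a median of 0.11 and 5.08% over 10436 detected genes. For 346 of the lower genes the median was 0.05, with 28 (8.09%) at least 1 and 18 (5.20%) at -1 or lower. At -1 or lower were also 9 of the 530 higher genes (1.70%) and 2.84% of all detected genes. Named genes that were higher with caffeine in both comparisons included PPP1R15A (6.67 with caffeine and 3.87 without), CLK1 (8.83 and 5.66), CDKN2AIP (8.22 and 5.52), TNFAIP3 (7.87 and 5.22) and SNHG17 (9.77 and 8.07). HBP1 (10.81 and 10.78), IRS2 (9.46 and 9.49), KDM5A (7.64 and 7.35) and YPEL2 (8.72 and 8.75) differed by less than the spread between probe sets of a gene. BHLHE40, lower after caffeine, was at 6.59 with caffeine and 3.03 without.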

How the data were processed

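Total RNA of 8 samples was hybridized to Affymetrix U133 Plus 2.0 arrays. The authors deposited log2 signals from gcRMA in Bioconductor, which applies convolution background correction, quantile normalization over the arrays and summarisation per probe set. RMA and GCRMA stand in the submitters' processing notes, with versions not given in the sources used here. The untreated LNCaP array had a median of 2.74 over the probe sets without controls. Quantile normalization over the arrays hides changes of total mRNA.

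The difference was caffeine minus untreated for probe sets with a signal of at least 4 on either LNCaP array, with a cut-off of 1. Of 54613 probe sets without controls, 41091 had 1 gene symbol, 1801 several and 11721 none, and 41037 matched RefSeq (GRCh38.p14). Each gene took its value from the probe set that was brightest on average over the 8 arrays. With 1 array a side no test was made.

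Named genes are the 15 in each direction with the largest smallest difference over at least 2 detected probe sets, the 10 in each direction with 1 detected probe set (signals under 4 set to 4), the 4 largest of each of 51 lists more members of lists that are described in detail, and the study's sequenced genes. The members and lists were chosen with earlier results of these data known. Alternatives were other floors, cut-offs, centrings and probe set choices, of which centring on the poly-A controls was added after seeing the data. The counting was tested on simulated data. Python 3.11.15, numpy 2.4.6, pandas 2.3.3 and matplotlib 3.10.9 were used.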

Additional observations from a re-analysis of the deposited data

Results flagged for a closer look

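Among genes detected in both lines, 6 were past the cut-off of 1 in opposite directions in LNCaP and 22Rv1, which is what drew attention to them. Whether the lines differ was not tested, because each line has 1 array a treatment. The stress cytokine GDF15 was lower in LNCaP by -1.05 (12.52 untreated and 11.47 after caffeine) and higher in 22Rv1 by 1.04 (10.48 and 11.52), so that the LNCaP difference minus the 22Rv1 difference was -2.09. The adhesion scaffold NEDD9 differed by -1.12 and 1.15 (-2.27 between the lines), and its other probe set by -1.21 and 1.50. FAM43A differed by -1.65 and 1.06 (-2.71 between the lines) on 1 probe set. TBC1D30 differed by -1.13 and 1.10 (-2.23 between the lines), with -0.90 and 0.73 on its other probe set. NKAIN1 differed by 1.24 and -1.65 (2.89 between the lines), with an untreated LNCaP signal of 3.18 under the floor. TENT5C, a poly(A) polymerase, differed by 1.02 and -1.49 (2.51 between the lines).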

How the results depend on the processing

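No paired analysis was possible because the comparison has 1 array a side and comes from no test. The counts below are given in the order probe sets higher and lower, genes higher and lower, and genes with all detected probe sets higher and lower, which were 1385, 1136, 557, 397, 82 and 55. A floor of 6 gave 923 and 702 probe sets and 36 genes with all probe sets lower. Without a floor, 44 and 33 genes had all probe sets higher and lower. From the hybridization controls the 6 counts were 3999, 402, 1843, 127, 362 and 18, and from the poly-A controls, added after seeing the data, 2178, 717, 959, 238, 153 and 32. Without probe sets ending in _s_at or _x_at, 54 and 23 genes had all probe sets higher and lower. A cut-off of 1.3 gave 773, 604, 284, 199, 40 and 26, and a cut-off of 2 gave 163, 167, 58, 44, 5 and 5. The other 27 alternative counts stayed within 1.5 times. List medians moved by less than 0.52, the SD between probe sets of a gene, in 443 cases. Centring shifts every median alike by less than that limit, so these cases say nothing of sign: of 50 medians, 17 turned sign from the hybridization controls, 11 from the poly-A controls and 2 on centring on the median of all probe sets. Another 1 to 8 turned sign under each of the other settings. The exceptions to the limit of 0.52 included 2 lists without probe sets ending in _s_at or _x_at. They were the ID, HES and BHLHE repressors (0.045 over 3 genes, from -0.84 over 10) and the genes the study sequenced (-0.045 over 4 genes, from 1.07 over 6). The other exception was the fibroblast markers with the probe set highest over the LNCaP pair (-0.39, from 0.38 over 2 genes). Of named genes and other list members past the cut-off, some had the opposite sign on another probe set or probe set rule: RBM39 (-0.77), MCL1 (-0.47, -0.21, -0.99, -0.29 and, as the mean of its probe sets, -0.18), GTPBP2 (-0.045), ZFAS1 (-0.12), SRSF6 (-1.07), ATF6 (-0.13), ATF5 (-0.0085 and -0.13), KLHL24 (-0.54), and EIF2AK4 (2.60, or 0.78 as the mean of its probe sets). The cause was not tested. Other values for these genes numbered 1573 that moved by less than 0.52 and 100 by more without a change of sign. Centring shifts every gene alike by less than 0.52, and genes with 1 probe set keep their value under the probe set rules. Part of the 1573 was therefore fixed in advance.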
